A study of Mus musculus with 3 samples.

Results

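Transcripts of 10 genes of the interleukin-6, interleukin-10 and interleukin-12 cytokine families were followed in 3 sorted populations of mouse leukocytes. The genes were chosen by symbol: the cytokine genes Il6, Il10, Il12a, Il12b, Il23a, Il27 and Ebi3 and the receptor genes Il6ra, Il6st and Il10ra, each of which had a row among the 23234 genes of every deposited table. All mice were wild-type C57BL/6J, aged 6 to 15 weeks, and all had received 10 µg of lipopolysaccharide (LPS, a bacterial cell wall component) in 10 µL by the nostrils. The double-positive (DP) cells were CD45+Ly6G+SiglecF+ and came from the nose 2 days after LPS. The nasal neutrophils were CD45+Ly6G+SiglecF- and came from the nose 1 day after LPS, and the blood neutrophils met the identical gate in peripheral blood, also at 1 day. No untreated mice were analysed here. Each group was a single library (1 per group), so the differences given here carry neither a replicate error nor a test, and day and gate cannot be told apart from the group in comparisons with DP cells, nor tissue in those with blood. Whether each library came from 1 mouse or from pooled mice is not given in the sources used here.

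These cytokines carry signals between leukocytes. Interleukin-6 (IL-6) acts through its own receptor chain, encoded by Il6ra, together with the shared signalling chain gp130, encoded by Il6st, and IL-10 acts through the chains encoded by Il10ra and Il10rb to restrain inflammatory gene expression. The IL-12 family cytokines are pairs of subunits that share partners: IL-12 joins p35 (Il12a) to p40 (Il12b), IL-23 joins p19 (Il23a) to the same p40, IL-27 joins p28 (Il27) to EBI3, and IL-35 has been described as p35 with EBI3. Neutrophils reaching inflamed tissue are known to respond to LPS through NF-kappaB, which drives several of these genes.

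The tables hold FPKM, numbers of sequenced fragments scaled by transcript length and library depth, so genes of 1 library can be compared per length. By the steps between low values, 1 FPKM stood for about 54.9 fragments per kilobase of transcript in DP cells, 12.9 in nasal neutrophils and 54.4 in blood neutrophils, so nasal neutrophils were the shallowest library, and fragment numbers below are approximations from these depths. Of the neutrophil markers, Csf3r stood at 581.4, 606.8 and 1180 FPKM in DP cells, nasal neutrophils and blood neutrophils. All 11 markers with a row were lower in DP cells than in nasal neutrophils, Csf3r by the least. Of the 11, 6 were at least 4-fold lower, as were 3.62% of the 10719 genes at a mean of 1 FPKM or more. S100a8, which neutrophils make in abundance, stood at 7656 and 29818 FPKM in the nose and was listed at 0 in blood, where its partner S100a9 stood at 52238 FPKM. An exact 0 in these tables can therefore be a failed estimate. Whether the values of the 3 members listed at 0 in blood are such cases cannot be told from these data. For SiglecF, which the tables carry as Siglec5, DP cells had 167.8 FPKM, nasal neutrophils 9.92 and blood neutrophils 18.7.

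The 10 genes covered a wide range of levels. In nasal neutrophils Il23a led at 261.3 FPKM, followed by Ebi3 at 147.4, and Il12b was lowest at 2.81. In DP cells Ebi3 led at 158.4 FPKM, followed by Il23a at 90.0, and Il10 was lowest at 0.24. In blood neutrophils Ebi3 led at 136.1 FPKM, followed by Il6ra at 28.3 and Il10ra at 15.8, while 3 members, Il6, Il10 and Il12b, were listed at 0, as 7.72% of the tested genes were there and 8.6% in 1 or more libraries. The level was highest in nasal neutrophils for 8 of the 10 genes. Of the 10719 genes at a mean of 1 FPKM or more, 22.3% had their highest value there. Among the 8 members, Il6, Il6st, Il10 and Il12b passed that mean only through the nasal neutrophil library. The count therefore describes the members and supports nothing further. Il6ra and Ebi3 were highest in DP cells, as were 58.7% of the tested genes. All 10 genes were lowest in blood neutrophils as deposited. Of all tested genes, 62.1% were higher in nasal than in blood neutrophils and 74.4% higher in DP cells than in blood. For Il6ra and Ebi3 median centring or upper-quartile scaling turned the order to highest in blood and lowest in DP cells. With median centring the log2(FPKM + 1) differences of Il10, Il10ra and Il12b in DP cells over blood also fell below 0, at -0.64, -0.51 and -0.05. For Il10 and Il12b, listed at 0 in blood, this sign comes from the subtracted median and not from a higher level in blood. Upper-quartile scaling gave 0.24 for Il10, -0.37 for Il10ra and 0.71 for Il12b. Without replicates the order of values that lie close together, as those of Il27 in the nose or of Ebi3 throughout, has no error to be read against.

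**Figure D1:**
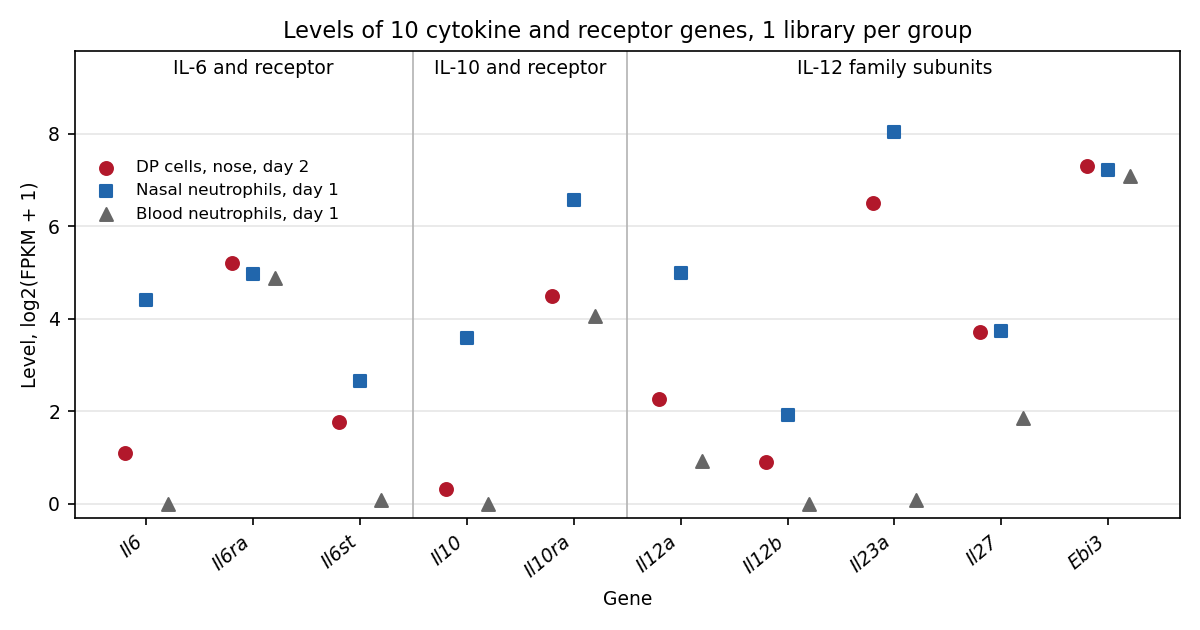
Levels of the 10 genes on the log2(FPKM + 1) scale, with 1 point per library: DP cells of the nose (red circles), nasal neutrophils (blue squares) and blood neutrophils (grey triangles). Il6ra and Ebi3 sit close together in the 3 libraries, while Il23a spans from 0.08 in blood to 8.03 in nasal neutrophils.

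The DNA before the start sites of Il6, Il12a and Il12b, which shared the order nasal neutrophils, DP cells, blood neutrophils, is shown beside that of Ebi3, whose level was nearly even. The 250 bases before the start site are RefSeq's for build GRCm38.p6, all on the plus strand, while the measured values rest on build mm9, and capitals mark matches to the kappaB, AP-1 and C/EBP patterns named below. RefSeq promoter entries were matched for 6 of the 10 members, and Il10, Il10ra, Il23a and Il27 had none.
Il6, chr5:30012864-30013113: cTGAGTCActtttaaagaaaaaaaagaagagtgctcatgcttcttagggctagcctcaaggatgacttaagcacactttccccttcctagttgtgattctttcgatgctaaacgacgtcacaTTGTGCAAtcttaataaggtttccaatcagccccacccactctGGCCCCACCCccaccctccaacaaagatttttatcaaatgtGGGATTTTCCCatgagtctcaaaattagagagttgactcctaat
Il12a, first start site, chr3:68690394-68690643: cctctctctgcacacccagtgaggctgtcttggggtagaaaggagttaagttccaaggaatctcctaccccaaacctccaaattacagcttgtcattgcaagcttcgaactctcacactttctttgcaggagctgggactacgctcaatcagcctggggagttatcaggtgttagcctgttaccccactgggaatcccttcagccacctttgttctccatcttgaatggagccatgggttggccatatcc
Il12b, chr11:44399813-44400062: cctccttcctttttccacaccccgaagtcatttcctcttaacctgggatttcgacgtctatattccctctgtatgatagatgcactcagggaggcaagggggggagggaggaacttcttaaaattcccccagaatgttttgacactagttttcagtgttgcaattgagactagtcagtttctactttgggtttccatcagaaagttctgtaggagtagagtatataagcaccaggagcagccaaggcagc
Ebi3, chr17:55952373-55952622: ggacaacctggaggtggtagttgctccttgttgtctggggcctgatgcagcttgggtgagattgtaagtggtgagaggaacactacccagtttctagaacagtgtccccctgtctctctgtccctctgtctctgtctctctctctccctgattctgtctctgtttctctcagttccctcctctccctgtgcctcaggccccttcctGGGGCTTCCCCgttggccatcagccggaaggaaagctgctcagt

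Motifs were searched as letters on both strands. The kappaB pattern was GGG and CC with any 5 bases between them, the AP-1 pattern TGANTCA, the C/EBP pattern TTNNGNAA, the interferon response pattern GAAA and GAAA with any 2 bases between them, and the STAT pattern TTCNNNGAA. In the Il6 window TGAGTCA lay 249 to 243 bases before the start site, TTGTGCAA lay 128 to 121 bases before it, and overlapping kappaB matches on the 2 strands lay 44 to 34 bases before it, with a further match at 85 to 76 bases. The Ebi3 window held overlapping kappaB matches at the same 44 to 34 bases, and the windows of Il12b and of the first Il12a start site held none of the 5 patterns. These loose patterns are common: among 32851 windows of that length, 45.8% held the kappaB, 36.8% the C/EBP, 6.75% the AP-1, 2.98% the interferon response and 7.02% the STAT pattern. Of the 7 member windows, Il12a having 2, 4 held the kappaB pattern (Il6, Il6ra, Ebi3 and the second Il12a window), 2 the C/EBP pattern (Il6 and Il6ra), 1 the AP-1 pattern and 0 the others. A match is a run of letters and was not read as a bound site.

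Il6, the cytokine itself, stood at 1.14 FPKM in DP cells and 20.1 in nasal neutrophils, with 0 listed for blood. It was 17.6-fold lower in DP cells than in nasal neutrophils in FPKM. About 232 fragments lay behind the nasal neutrophil value and about 56 behind the DP value. Il6ra, whose product binds IL-6, was nearly even at 35.9, 30.2 and 28.3 FPKM in DP cells, nasal neutrophils and blood neutrophils, a spread of 1.27-fold in FPKM from DP cells to blood. For 5.89% of the 10719 genes the highest value was under 1.5 times the lowest, and Il6ra and Ebi3 were among them. Il6st, encoding the signal-transducing chain gp130, stood at 2.38 FPKM in DP cells, 5.32 in nasal and 0.055 in blood neutrophils, the last resting on about 26 fragments. The binding chain thus exceeded the signalling chain in each library, by 15.0 times in DP cells, 5.67 in nasal and 514 in blood neutrophils.

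Il10 had the largest ratio in FPKM between the nasal populations. It stood at 10.9 FPKM in nasal neutrophils (about 185 fragments) and 0.24 in DP cells (about 18 fragments), 44.9-fold lower in DP cells, and 0 was listed for blood. Il10ra, which encodes the ligand-binding chain, stood at 21.7, 93.5 and 15.8 FPKM in DP cells, nasal neutrophils and blood neutrophils. It was 4.31-fold lower in DP cells and 5.93-fold higher in nasal than in blood neutrophils in FPKM, with at least 2702 fragments behind each value. Il10rb, the second chain, was more even than Il10ra, at 150.5, 196.1 and 128.2 FPKM. Ligand and binding chain were thus both highest in nasal neutrophils, while DP cells and blood neutrophils lay within 1.38-fold of each other for Il10ra.

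Il23a, encoding p19, differed more than any other member on the log2(FPKM + 1) scale between the nose and blood. It stood at 90.0 FPKM in DP cells, 261.3 in nasal neutrophils and 0.059 in blood neutrophils, where about 4 fragments lay behind the value. The difference on the log2(FPKM + 1) scale was 7.95 for nasal over blood neutrophils and 6.43 for DP cells over blood neutrophils, and with pseudocounts of 0.1 and 5 FPKM these became 10.68 and 5.72, and 9.15 and 4.23. DP cells lay 2.90-fold below nasal neutrophils in FPKM. Il23a was the one member at least 4-fold higher in DP cells than in blood, and it kept about 6715 fragments in the DP library.

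Il12b, encoding the p40 that both IL-12 and IL-23 need, was low in both nasal libraries. It stood at 0.87 FPKM in DP cells (about 88 fragments) and 2.81 in nasal neutrophils (about 67 fragments), with 0 listed for blood. Il12a, encoding p35, stood at 3.82 FPKM in DP cells, 30.9 in nasal neutrophils and 0.91 in blood neutrophils. It was 8.08-fold lower in DP cells than in nasal neutrophils and 34.0-fold higher in nasal than in blood neutrophils in FPKM. In nasal neutrophils Il23a exceeded Il12b by 93.1 times and Il12a exceeded it by 11.0 times. In DP cells the same ratios were 104.0 and 4.42. Of the 3 transcripts p40 was thus the scarcest in both nasal libraries, and p19 exceeded p35 by 23.5 times in DP cells and 8.45 times in nasal neutrophils. In blood, where Il12b was listed at 0, the order of p19 and p35 was the opposite. There Il23a stood at 0.065 of the Il12a level, on about 4 and 64 fragments.

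Il27 and Ebi3, the subunits of IL-27, were nearly even between the nasal populations, as Il6ra was. Il27 stood at 12.2 FPKM in DP cells, 12.3 in nasal neutrophils and 2.62 in blood neutrophils. Ebi3 stood at 158.4, 147.4 and 136.1 FPKM. Against blood the pair differed, with Il27 4.67-fold and Ebi3 1.16-fold higher in DP cells in FPKM. Ebi3 exceeded Il27 by 13.0 times in DP cells, 12.0 in nasal neutrophils and 52.0 in blood neutrophils, and it exceeded Il12a by 41.4, 4.77 and 149.8 times. In GENCODE M21 an exon of Il27 overlaps one of Apobr on the opposite strand by 103 nt, Ebi3 overlaps the antisense gene Gm16712 by 155 nt and Il6ra overlaps the antisense gene Gm42809 by 242 nt. Whether counting used strand is not given in the sources used here, so reads of these stretches may belong to either gene.

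**Figure D2:**
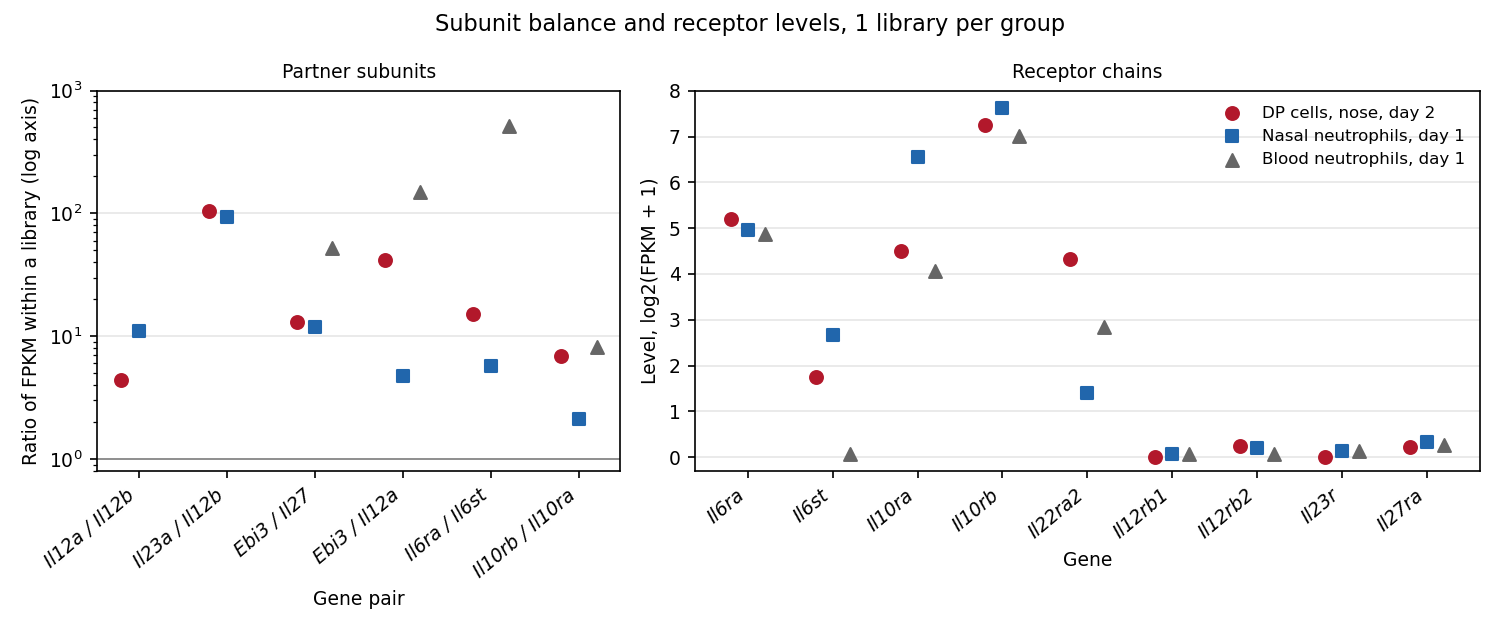
Left, ratio of FPKM of 2 partner genes within each library on a log axis, with no blood point where Il12b was listed at 0; right, levels of receptor chains as log2(FPKM + 1). The Il23a to Il12b ratio was 104.0 in DP cells and 93.1 in nasal neutrophils, the Il6ra to Il6st ratio reached 514 in blood, and the 4 receptor genes of the IL-12 family lay at the bottom of the scale.

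The receptors of the IL-12 family had hardly any transcripts. Il12rb1, shared by the IL-12 and IL-23 receptors, was listed at 0 in DP cells, with 0.053 and 0.045 FPKM in nasal and blood neutrophils. Il23r stood at 0.007, 0.093 and 0.104 FPKM in DP cells, nasal neutrophils and blood neutrophils. Over the 4 genes, Il12rb2 and Il27ra included, and the 3 libraries the highest value was 0.261 FPKM, that of Il27ra in nasal neutrophils, so the libraries that held transcripts of IL-23 and IL-27 subunits held hardly any of these 4. Of the 6 other IL-10 family ligands (Il19, Il20, Il22, Il24, Il28a and Il28b), the highest value in a library was 0.185 FPKM. Il22ra2, which encodes a soluble binding protein for IL-22, went the other way from Il10ra: it stood at 19 FPKM in DP cells, 1.63 in nasal and 6.2 in blood neutrophils, 11.6-fold higher in DP cells than in nasal neutrophils in FPKM.

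Of the 9 other IL-6 family ligands, 4 reached a mean of 1 FPKM. Osm, encoding oncostatin M, stood at 49.8 FPKM in DP cells, 835.5 in nasal and 16.4 in blood neutrophils, in the same order as Il6. It was the one of the 4 at least 4-fold lower in DP cells than in nasal neutrophils. Ctf1, encoding cardiotrophin 1, was higher in DP cells at 3.89 FPKM against 1.24 in nasal neutrophils, with 0 listed for blood. Of the 5 other receptors of the family, Lifr, the chain for leukaemia inhibitory factor, stood at 12.0 FPKM in DP cells, 3.60 in nasal neutrophils and 2.43 in blood neutrophils, and Il11ra1 at 3.85, 2.17 and 0.14. Both receptors were thus highest in DP cells, as were 58.7% of all tested genes. Of the proteases known to shed the IL-6 receptor, Adam10 stood at 47.6, 21.8 and 18.3 FPKM and Adam17 at 25.2, 25.1 and 21.3, Adam17 being lowest in DP cells with centring.

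Counts over the members were set beside those over all tested genes. A gene was counted at 4-fold where log2(FPKM + 1) differed by 2 or more, which understates the ratio of low genes. All 10 members passed the filter of a mean of 1 FPKM, Il6, Il6st, Il10 and Il12b only through the nasal neutrophil library, so these counts describe the members and support nothing further. In DP cells against nasal neutrophils 4 of 10 were lower (Il6, Il10, Il12a and Il10ra) and 0 higher, where 3.62% of all tested genes were lower and 8.42% higher. Il10ra lay just past the limit at -2.06 and Il23a inside it at -1.53. The median difference was -1.28 over the members and 0.57 over all tested genes. With differences centred on the median of all tested genes, 5 members were lower, Il23a having passed the limit at -2.10, against 7.21% of all tested genes lower and 3.36% higher.

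In nasal against blood neutrophils 6 of 10 members were at least 4-fold higher (Il6, Il6st, Il10, Il10ra, Il12a and Il23a) and 0 lower, where 13.1% of all tested genes were higher and 3.23% lower. The median difference was 2.54 over the members and 0.41 over all tested genes, and centring left 6 members higher, against 9.03% of all tested genes higher and 5.68% lower. Without genes at 0 in either library 4 of the remaining 7 members were higher, a setting at which no share of all tested genes was computed. In DP cells against blood neutrophils 1 of 10, Il23a, was at least 4-fold higher and 0 lower, where 24% of all tested genes were higher and 3.57% lower. The median difference was 1.00 over the members and 0.95 over all tested genes, while the count of 1 of 10 was below the share of genes in general. With pseudocounts of 0.1 and 5 FPKM the members' median was 2.07 and 0.33. Centred values were above 0 for 5 members and below 0 for 5, with 10.4% of all tested genes then at least 4-fold higher and 9.06% lower. In FPKM without a pseudocount Il6st, Il27 and Il12a were also over 4-fold higher in DP cells than in blood, by 43.3, 4.67 and 4.21-fold. The 3 comparisons share libraries and are not independent of each other.

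**Figure D3:**
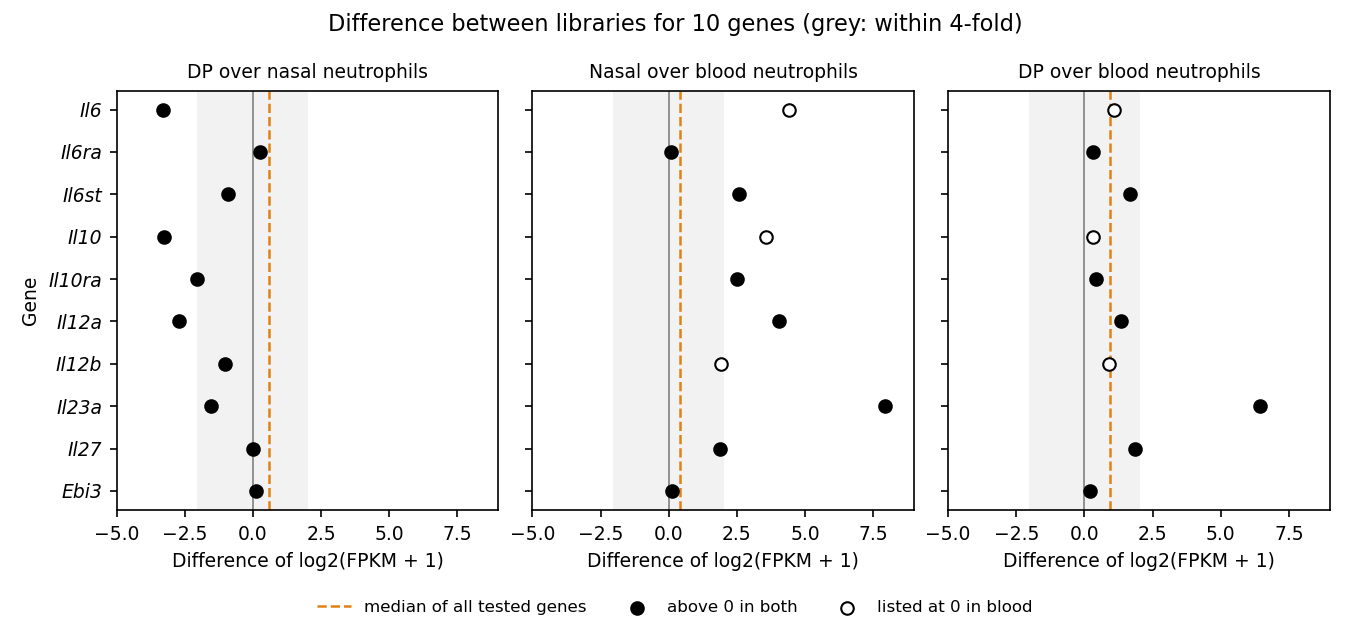
Difference of log2(FPKM + 1) between 2 libraries for each of the 10 genes, with the range within 4-fold in grey, the median of all tested genes as a dashed line and open circles for genes listed at 0 in blood. Il6, Il10, Il12a and Il10ra lie left of the grey range in DP over nasal neutrophils, and Il23a alone lies right of it in DP over blood neutrophils.

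Genes known to control these cytokines were read as whole lists. Of 14 transcription factor genes, 13 reached a mean of 1 FPKM, of which 3 were at least 4-fold lower in DP cells than in nasal neutrophils and 0 higher, with a median log2 difference of -1.32 against 0.57 over all tested genes. In nasal against blood neutrophils 6 of the 13 were higher and 0 lower, and in DP cells against blood 2 were higher and 0 lower. Over all tested genes, for this list and those that follow, 3.62% were lower in DP cells than in nasal neutrophils, 13.1% higher in nasal than in blood neutrophils and 24% higher in DP cells than in blood, so the last count of 2 of 13 is below the share of genes in general. Nfkbiz, encoding the IkappaB zeta that Il6 and Il12b transcription is known to need, stood at 86.7, 1121 and 16.7 FPKM in DP cells, nasal neutrophils and blood neutrophils. Cebpb, a C/EBP factor, stood at 156.1, 207.7 and 2.71 FPKM, and so was high in both nasal libraries, as Il23a was. Bcl3, a nuclear IkappaB protein, stood at 11.9, 76.8 and 4.81 FPKM, and Irf5 at 20.1, 84.9 and 22.2. Maf, a factor of Il10 transcription in other leukocytes, stayed under a mean of 1 FPKM, at 0.28, 1.99 and 0.44.

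Among genes whose products act on the cytokine mRNAs, several were highest in nasal neutrophils. Of 8 such genes, all tested, 2 were at least 4-fold lower in DP cells than in nasal neutrophils and 0 higher. With centring on the median of all tested genes 5 were lower, as were 7.21% of all tested genes. In nasal against blood neutrophils 4 were higher, and in DP cells against blood 0. Zc3h12a, encoding the nuclease Regnase-1 that cleaves Il6 and Il12b mRNA, stood at 17.7 FPKM in DP cells, 133.3 in nasal neutrophils and 4.54 in blood neutrophils. Zfp36, encoding tristetraprolin, which destabilises AU-rich cytokine mRNAs, stood at 1464, 5423 and 400.5 FPKM. Zc3h12a and Zfp36 were thus highest in the library where Il6 and Il10 were highest, but not all genes of the list were. Rc3h1 (4.68, 3.89 and 5.36 FPKM) and Rc3h2 (0.76, 1.15 and 2.24) were highest in blood neutrophils, where Il6 and Il10 were listed at 0. Elavl1 (18.7, 12.1 and 6.88) was highest in DP cells.

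The signalling genes were nearly even between the nasal populations and less so against blood. Of 8 JAK, STAT and SOCS genes, 0 were at least 4-fold higher or lower in DP cells than in nasal neutrophils, with a median log2 difference of -0.09. With centring 2 were lower, as were 7.21% of all tested genes. In nasal against blood neutrophils 2 were higher and 1 lower, and in DP cells against blood 3 were higher and 1 lower, or 0 and 1 with centring. Of all tested genes 3.23% were lower in the former comparison and 3.57% in the latter. With centring 10.4% were higher and 9.06% lower in the latter. Stat3, the main signal carrier of IL-6 and IL-10, stood at 130.8, 133.3 and 90.2 FPKM in DP cells, nasal neutrophils and blood neutrophils. Stat4, which carries IL-12 signals, stood at 4.62, 4.53 and 32.8 FPKM and so was at least 4-fold higher in blood than in both nasal libraries. Socs3, the feedback inhibitor that binds gp130, stood at 397.8, 1018 and 58.8 FPKM, and Socs1 at 18.4, 59.7 and 1.91, both at least 4-fold higher in nasal neutrophils and in DP cells than in blood, the latter no longer with centring. Of 10 genes known to be STAT3 targets of IL-10, 9 were tested, of which 4 were at least 4-fold lower in DP cells than in nasal neutrophils (Pim1, Sbno2, Bcl3 and Il4ra) and 0 higher, with a median log2 difference of -1.83. Pim1, a kinase gene, stood at 113.4, 891.7 and 7.34 FPKM, and Il1rn, encoding the IL-1 receptor antagonist, at 900.0, 2146 and 370.5. Of the 9, 5 were higher in nasal than in blood neutrophils, and 2 in DP cells than in blood.

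**Figure D4:**
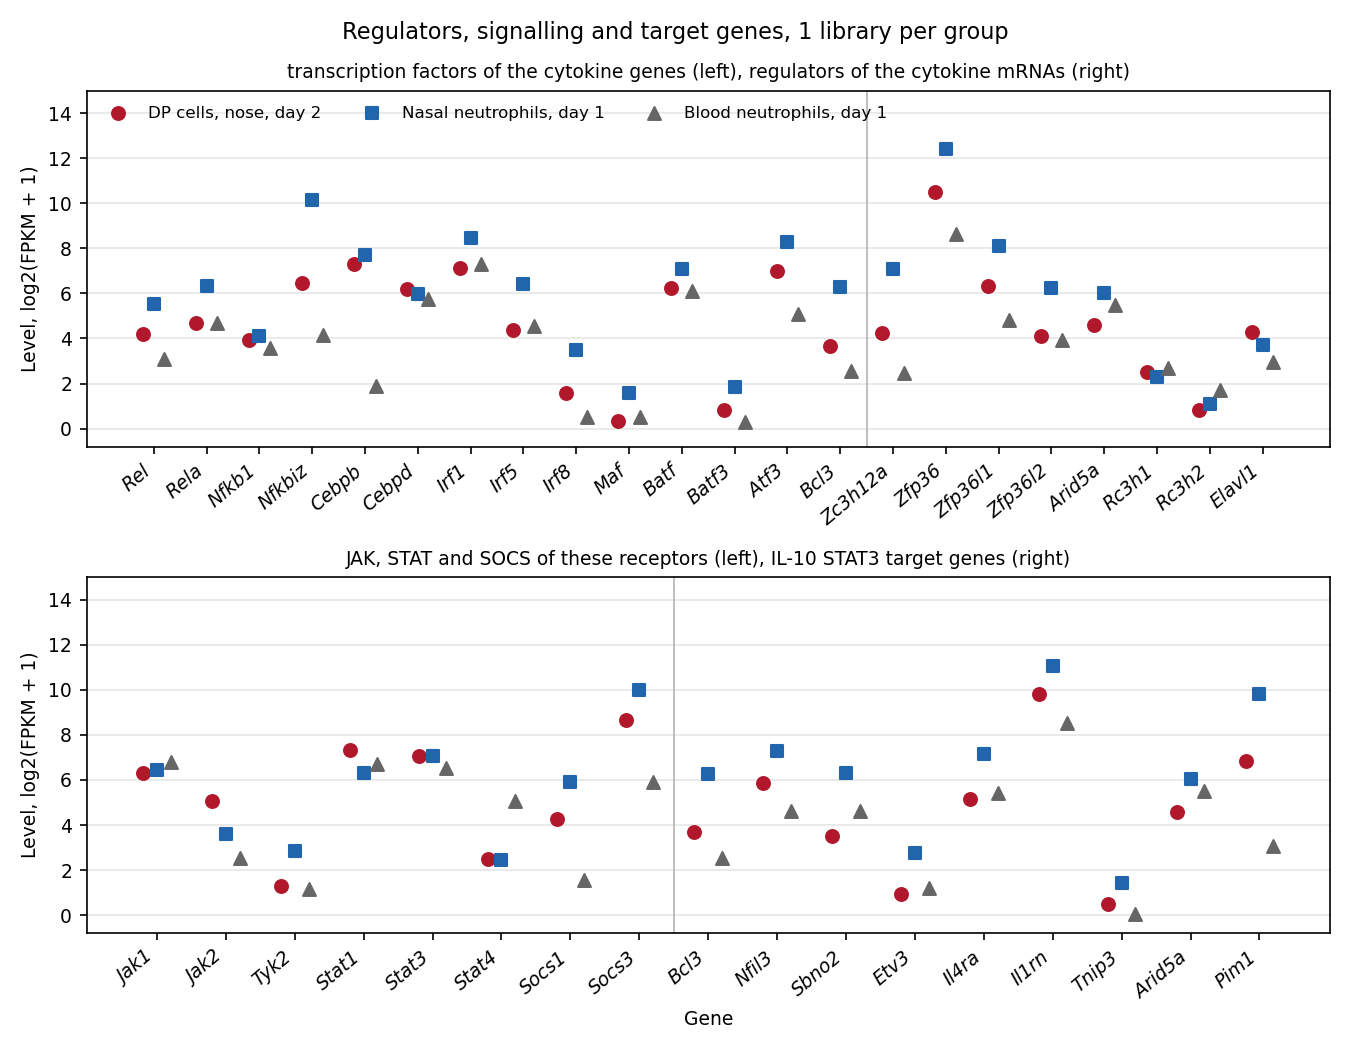
Levels as log2(FPKM + 1) of genes that regulate, transmit or answer these cytokines, 1 point per library with the colours of the plot of member levels; Socs3, Bcl3 and Arid5a belong to 2 lists, and Socs3 is drawn once. Nasal neutrophils are highest for Nfkbiz, Zc3h12a, Zfp36 and Pim1, while Jak1 and Stat3 lie close together in the 3 libraries.

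Genes with the profile most like a member were found by the distance between log2(FPKM + 1) values over the 3 libraries, after subtracting each gene's mean, which is a description over 3 points. For Il23a, only 2 other tested genes lay within 0.5: Ptgs2, encoding the inducible prostaglandin synthase, at 263.7, 738.4 and 2.01 FPKM (distance 0.033), and Plk3, a kinase gene, at 232.0, 499.9 and 1.31 (distance 0.30). For Il6 there were 12 within 0.5, the nearest being Nfkb2 (0.096), Serpinb2 (0.17) and Vps37b (0.21). For Il12a there were 28, led by F10 (0.020), Adora2a (0.16) and Bcl3 (0.23), and for Il10 there were 24, led by Sqstm1 (0.17), Krtdap (0.24) and Lpcat4 (0.26). Il10ra had 136 such genes, led by Kctd12 (0.016), Cxcl13 (0.024) and Ch25h (0.037). The profiles of the others were common ones, with 249 genes within 0.5 for Il6st, 413 for Il12b, 738 for Il27, 1357 for Ebi3 and 1494 for Il6ra.

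Markers of other cells also differed between the libraries. Of 11 macrophage markers, C1qa, C1qb, C1qc, Mrc1 and Mertk were listed at 0 in blood, like Il6, Il10 and Il12b, and the summed list stood at 461.9 FPKM in DP cells, 557.2 in nasal and 400.6 in blood neutrophils. Of these markers C1qb stood at 32.3 and 80.9 FPKM in DP cells and nasal neutrophils. Cd68, the largest part of the sum, stood at 296.3, 181.1 and 235.3 FPKM in DP cells, nasal and blood neutrophils. Of the 7 tested, 6 were lower and 1 higher in DP cells than in nasal neutrophils, where 30.3% of all tested genes were lower. In nasal against blood neutrophils 5 were higher and 2 lower. Of the 5, 4 were at least 4-fold higher, as were 13.1% of all tested genes. The 10 monocyte and dendritic cell markers summed to 79.3, 308.9 and 181.7 FPKM, with Clec9a listed at 0 in both nasal libraries and Zbtb46 in blood. The 6 of them that were tested had no common order: 3 were higher and 3 lower in DP cells than in nasal neutrophils, Ccr2 standing at 5.16, 15.8 and 0.76 FPKM and Itgax at 55.4, 14.3 and 5.34. The 6 B and plasma cell markers with a row summed to 4.84, 45.4 and 63.7 FPKM, with Pax5 listed at 0 in DP cells. Of these, 4 were tested, of which 3 were at least 4-fold lower in DP cells than in nasal neutrophils and 4 lower in DP cells than in blood. Of all tested genes 3.62% and 3.57% were lower in these comparisons. Stromal and endothelial markers, 9 genes, summed to 28.3, 23.1 and 5.92 FPKM, with Col3a1, Pdgfra and Cdh5 listed at 0 in blood, and 12 epithelial and olfactory markers to 2198, 1982 and 1.59, with Epcam, Krt5, Omp, Gap43, Cyp2g1, Foxj1 and Muc5b listed at 0 there. The part of such cells in the values of the 10 members, Il6st included, and in those of Il11ra1, Lifr and Ctf1 was not tested. In sorted bulk samples fewer cells that carry a transcript and less of it per cell cannot be told apart. Mast cell and basophil markers were near 0, with Mcpt4 and Fcer1a listed at 0 in the 3 libraries and a sum of 1.57, 5.83 and 0.71 FPKM over 6 genes. Eosinophil markers summed to 3.21, 14.2 and 6.86 FPKM over 7 genes, with Epx listed at 0 in the 3 libraries, T and NK cell markers to 15.0, 6.11 and 12.2 over 8, and red cell and platelet markers to 8.39, 5.32 and 43.2 over 6.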

How the data were processed

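RNA-seq of 3 libraries was read from gene tables in which the authors deposited 1 FPKM value per gene symbol. The headers give no unit; it was taken from Cufflinks, which the submitters' processing notes list as version 2.1.1 with TopHat2 2.0.8, Bowtie2 2.1.0 and mm9, and from the values. The sources used here do not give settings, strand or annotation. Values under 1e-06 FPKM (20 to 43 per library) were set to 0. No count model suits FPKM, and with 1 library per group no test was made.

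Genes at a mean of 1 FPKM or more were tested (10719 of 23234), and differences were taken on log2(FPKM + 1) and called at 2, which is 4-fold. Depth came from the commonest low value times transcript length, over protein-coding genes of 1 transcript over 1500 nt, counted within 6%. By its 0.5 multiple the step was least clear in DP cells, with 49 genes at it and 14 at that multiple, against 52 and 5 in nasal and 39 and 3 in blood neutrophils. At 2 times the step lay 16 genes in DP cells, 44 in nasal and 16 in blood neutrophils. In nasal neutrophils that is nearly as many as at the step itself. Lengths (median of RefSeq-linked coding transcripts) came from GENCODE M21, as did exon overlaps; its build is not mm9.

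The members, 12 pathway lists (the members included) and 11 cell marker lists were chosen with earlier results of these data known. Any gene of a pathway list at a mean of 1 FPKM or more could be named, with full values for the 4 of largest difference. Beside these stood the members, the 3 nearest profiles of each and the 2 highest markers of a list. Maf, Rc3h1, Rc3h2, Elavl1, Stat3, Il1rn, Ly96, Clec7a, Csf3r, S100a8, S100a9, C1qb, Ccr2 and Itgax were named after their values were seen. So were the IL-12 family receptors and the markers at 0. Ly6g and Jchain were not analysed here. The results were recomputed with pseudocounts of 0.1 and 5 FPKM, no filter or a mean of 5 FPKM, values rescaled to a sum of 1000000, median centring, upper-quartile scaling, omission of genes at 0 and a 2-fold threshold. Counting steps were tested on simulated data. Python 3.11.15, numpy 2.4.6, pandas 2.3.3 and matplotlib 3.10.9 were used.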

Additional observations from a re-analysis of the deposited data

How the results depend on the processing

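No paired analysis was possible because each group held 1 library, and for the same reason no library could be left out. In DP cells against nasal neutrophils, the count of members at least 4-fold lower was 2 with a pseudocount of 5 FPKM. In nasal against blood neutrophils, the members' median log2 difference was 4.90 and 1.43 with pseudocounts of 0.1 and 5 FPKM. In DP cells against blood neutrophils, the count of members at least 4-fold higher was 5 with a pseudocount of 0.1 FPKM, 3 with values rescaled to a sum of 1000000 and 5 at a 2-fold threshold, and the median was 2.07 and 0.33 with those pseudocounts and 0.047 with median centring. Further counts moved by just 1.5 times. With a 2-fold threshold 6 members were lower in DP cells than in nasal neutrophils, and 4 were higher in nasal than in blood neutrophils with a pseudocount of 5 FPKM, a mean of 5 FPKM or genes at 0 left out. The other counts and medians moved by less. Shares of all tested genes were computed only for the values as deposited and with median centring. Counts of members at the other settings therefore describe the members alone and are not set against genes in general. Causes were not tested.

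Of 150 differences of single members under other pseudocounts and scalings, 0 that were past 4-fold changed sign. The sign changed in 16, all under median centring or upper-quartile scaling: for Il6ra and Ebi3 in each comparison, and for Il10, Il10ra and Il12b in DP cells against blood neutrophils. Il10 and Il12b, listed at 0 in blood, changed sign under median centring alone. Directions of these small log2(FPKM + 1) differences therefore depend on the scaling. Depth limits the Il23a value in blood, with about 4 fragments, and the Il10 value in DP cells, with about 18.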

Other observations

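Receptors through which LPS and other microbial products are known to induce these cytokines differed among themselves. Of 9 such receptor and adaptor genes, 7 were tested, of which 1 (Tlr2) was at least 4-fold lower in DP cells than in nasal neutrophils and 0 were higher. Cd14, the co-receptor that hands LPS to TLR4, stood at 4118 FPKM in DP cells, 12196 in nasal neutrophils and 204.2 in blood neutrophils, so that, like Il23a, it was at least 4-fold higher in both nasal libraries than in blood. Tlr4 itself went the other way, at 11.3, 35.9 and 47.1 FPKM, as did its partner Ly96 at 14.9, 36.2 and 84.4, with blood neutrophils highest for both. Tlr2 stood at 39.7, 596.8 and 82.2 FPKM, and Clec7a, the fungal beta-glucan receptor, at 252.2, 173.8 and 680.1.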
